A study of Mus musculus with 4 samples.

Results

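The genes described here encode ribosome biogenesis and ribosomal RNA processing factors of mouse embryonic stem cells. They were chosen by name, as 54 symbols of proteins that transcribe, cut, modify and assemble ribosomal RNA, and 41 of the 54 had a row in a deposited table of 22883 gene models. Each of the 41 symbols had a single row. The other 13 (Nop58, Tsr1, Gnl3, Bop1, Bysl, Gnl2, Nop56, Dkc1, Noc2l, Emg1, Ncl, Wdr43 and Nhp2) had no row under those symbols or their RefSeq synonyms and are not analysed here. The cells were V6.5 mouse embryonic stem cells, grown without feeders, in clones carrying a conditional knockout of Exosc3, which encodes a core protein of the RNA exosome. In the Exosc3-depleted group (2 libraries) doxycycline had been withdrawn for 3 days, and in the Exosc3-present group (2 libraries) the cells stayed in 0.1 µg/ml doxycycline. All 4 libraries carry the same conditional knockout genotype, the number of clones behind them is not given in the sources used here, and loss of doxycycline and loss of Exosc3 cannot be told apart. Total RNA was depleted of ribosomal RNA before stranded, paired-end sequencing, and levels are FPKM, fragments scaled to the length of the gene model and to the library's total. Whether the replicates of a group came from separate cultures is not stated, and p-values reflect the spread among these 4 libraries alone, which may be technical.

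Ribosomes are built in the nucleolus. RNA polymerase I, guided by UBF and recruited through RRN3, makes a long precursor RNA, on which the small-subunit processome, with the U3 small nucleolar ribonucleoprotein (snoRNP) at its core, assembles to release the small-subunit RNA. Box C/D snoRNPs guide methylation and box H/ACA snoRNPs guide pseudouridylation of the precursor, while a separate set of factors folds and trims the large-subunit RNA. The RNA exosome itself takes part, since it trims and degrades spacer pieces of the precursor. Fast-dividing cells such as embryonic stem cells make ribosomes at a high rate, and disturbed ribosome assembly is a known trigger of p53.

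Exosc3 (uc008ssk.1) was at 0.635 and 0.691 FPKM in Exosc3-depleted cells, against 24.2 and 23.2 FPKM in Exosc3-present cells, which matched the labels of all 4 libraries. The library totals recovered from the values were 38095698 and 41968325 fragments in the Exosc3-depleted libraries and 60851774 and 55233386 in the Exosc3-present libraries. A member held between 491 and 78208 fragments in a library, so counting error was at most 4.51% of a value (intervals and errors of counting cover nothing else). Markers moved with the groups. Of 8 listed embryonic stem cell markers 6 had a row (Nanog and Sox2 did not), 4 of these fell and none rose. The 6 summed to 1295 to 1953 FPKM in Exosc3-depleted libraries, against 3072 to 3081 FPKM in Exosc3-present libraries. Most of each sum was Dppa5a, at 1357 and 817 FPKM in Exosc3-depleted libraries, against 2206 and 2230 FPKM in Exosc3-present libraries. Zfp42, Esrrb and Tdgf1 also fell, whereas Pou5f1 and Utf1 did not pass (limma adjusted p = 0.167 and 0.339). Of 8 trophectoderm markers 4 rose and 1 fell, summing to 108 to 142 FPKM in Exosc3-depleted libraries, against 25.4 to 28.0 FPKM in Exosc3-present libraries, almost all of it keratins. The 1 trophectoderm marker that fell was the regulator Eomes (limma adjusted p = 0.0426). Eomes was at 0.301 and 0.456 FPKM in Exosc3-depleted libraries, against 0.656 and 0.965 FPKM in Exosc3-present libraries. The other listed trophectoderm regulators, Cdx2, Gata3 and Elf5, were too low to be tested. Cdx2 was at 0.245 and 0.156 FPKM in Exosc3-depleted libraries, against 0.0230 and 0.0169 FPKM in Exosc3-present libraries, and Gata3 at 0.0980 and 0.126 FPKM in Exosc3-depleted libraries, against 0 and 0.00563 FPKM in Exosc3-present libraries, both without overlap. Elf5 was listed at 0 in both Exosc3-depleted libraries, against 0.0371 and 0.0163 FPKM in Exosc3-present libraries. Of 5 primitive endoderm markers 4 rose, summing to 4.60 to 5.38 FPKM in Exosc3-depleted libraries, against 1.88 to 2.05 FPKM in Exosc3-present libraries. Of 6 fibroblast markers 1 rose and 1 fell, summing to 1.74 to 2.74 FPKM in Exosc3-depleted libraries, against 2.91 to 3.06 FPKM in Exosc3-present libraries, with Postn at 0 throughout. The 1 that fell was Thy1, at 0.151 and 0.206 FPKM in Exosc3-depleted libraries, against 2.39 and 2.09 FPKM in Exosc3-present libraries. Col1a1, Col1a2 and Twist1 (the 1 that rose) lay higher in both Exosc3-depleted libraries, and Col3a1, near 0, lay lower. The part of these shifts in the results below was not tested, and in bulk RNA fewer cells of a type and less RNA per cell cannot be told apart.

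Of the 41 members, 18 fell in Exosc3-depleted cells and none rose. The limma test was run on log2(FPKM + 0.5) over the 9336 rows whose mean reached 0.5 FPKM, with Benjamini-Hochberg adjustment and a threshold of 0.05, and all 41 members passed the filter. Without adjustment 24 of the 41 had p under 0.05, as had 4801 of the 9336 tested rows. Of all tested rows 42.7% changed, with 30.1% falling and 12.6% rising, so a share of 43.9% of members falling stood above a background that was itself mostly downward. The median member had a log2 fold change of -0.56, the median of all tested rows was -0.27, and 31 of the 41 members lay below that median row. In 30 members both Exosc3-depleted libraries lay below both Exosc3-present libraries, which held for 50.9% of all tested rows. In 1 member, Utp20, both lay above, as in 22.2% of all rows, and in the other 10 members the groups overlapped (groups stood apart in 73.1% of all rows).

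**Figure D1:**
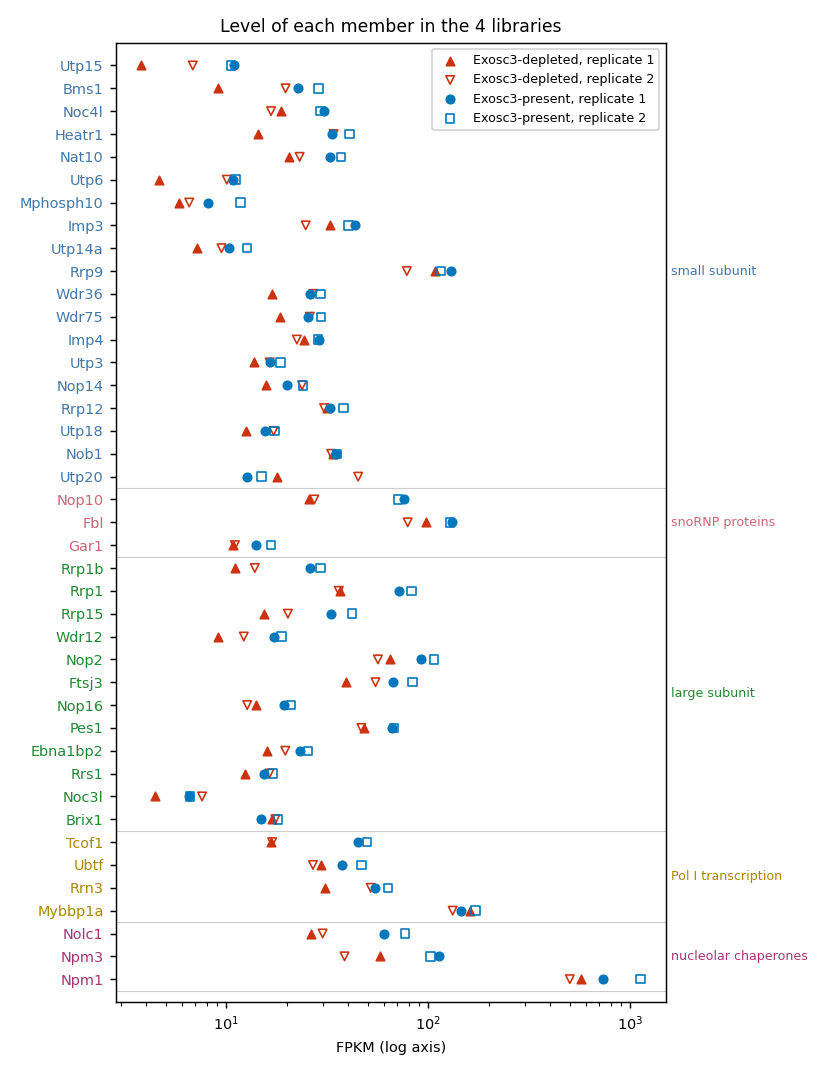
FPKM on a log axis of the 41 members in the 4 libraries, grouped by role, with triangles for the Exosc3-depleted libraries and circles and squares for the Exosc3-present libraries. In Tcof1, Nop10, Rrp1 and Nolc1 the triangles stand clear to the left of the other points, whereas in Utp20 they stand to the right, at 17.8 and 44.9 FPKM in Exosc3-depleted cells, against 12.7 and 14.9 FPKM in Exosc3-present cells.

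How many members fell depended on the scaling. The deposited values are scaled to all fragments. Of these 42.4% and 44.0% lay in gene models in Exosc3-depleted libraries, against 49.7% and 51.8% in Exosc3-present libraries. The 50 highest rows of each library held 52.4% and 54.4% of summed FPKM in Exosc3-depleted libraries, against 45.4% and 44.0% in Exosc3-present libraries. The part of these differences in the counts was not tested. With the values as deposited the median tested row was at log2 -0.27. It was at -0.06 with median-of-ratios scaling, -0.05 with quantile normalization and 0.03 with scaling without the 50 highest rows. Under these scalings 8, 7 and 6 members fell, or 19.5%, 17.1% and 14.6% of the 41, against 19.8%, 19.2% and 14.2% of all tested rows. The share of falling members was therefore near that of the whole table once the table was centred, and the median member then lay at -0.26, -0.13 and -0.24 relative to the median row on the log2 scale, beside -0.29 with the values as deposited. Of all called rows 29.6% were higher with the values as deposited, and 46.7%, 46.8% and 53.7% under the 3 scalings. Which library was left out also mattered, since leaving out 1 Exosc3-depleted library gave 23 falling members (replicate 1 out) or 33 (replicate 2 out), and leaving out 1 Exosc3-present library gave 9 (replicate 1 out) or 6 (replicate 2 out). The share of all tested rows that fell moved with these counts, at 40.6% and 50.5% without an Exosc3-depleted library and 14.6% and 11.6% without an Exosc3-present library.

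A group of 6 members fell under each of the 16 alternatives tried, namely Tcof1, Nop10, Nolc1, Npm3, Rrp1b and Rrp1. How many of all tested rows did so was not counted, so no background share stands beside them. These 6 members spread over 4 of the classes below, and none of them is a small-subunit factor. Their log2 fold changes lay between -1.47 and -1.07, and relative to the median row between -1.20 and -0.80. The other 12 lost their call under at least 1 alternative, namely all 12 without Exosc3-present replicate 2 and, with the exception of Rrp15 and Npm1, without Exosc3-present replicate 1 as well.

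**Figure D2:**
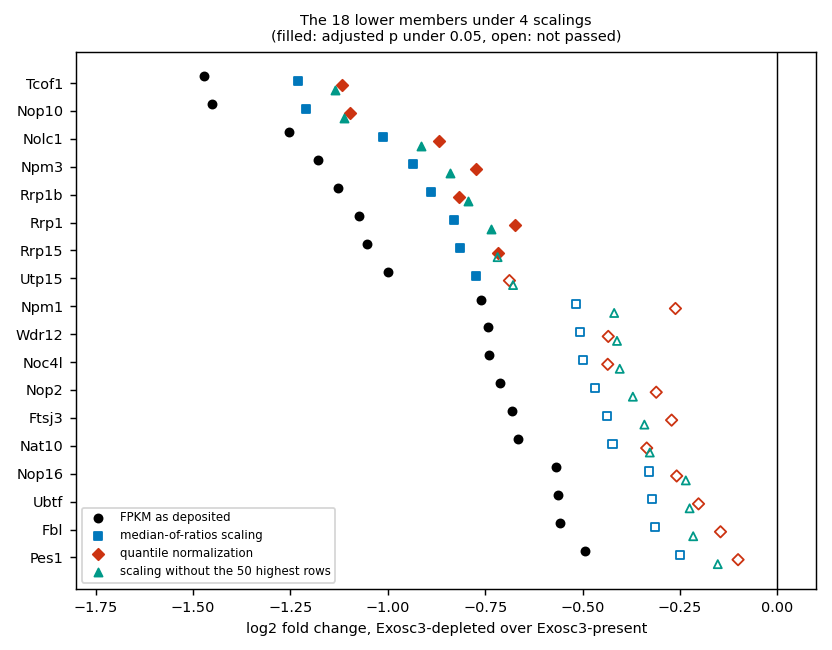
Log2 fold change, Exosc3-depleted over Exosc3-present, of the 18 lower members with the values as deposited and under 3 other scalings, with filled symbols for adjusted p under 0.05. Tcof1, Nop10, Nolc1, Npm3, Rrp1b and Rrp1 stay filled under all 4 scalings, whereas Pes1, Fbl, Ubtf and Nop16 are open under the other 3.

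Among factors of RNA polymerase I transcription, 2 of 4 fell, against 30.1% of all tested rows, with a class median of log2 -0.56. Tcof1 (uc008fbc.2) encodes treacle, a nucleolar phosphoprotein that binds UBF and RNA polymerase I and is mutated in human Treacher Collins syndrome. It was at 16.6 and 16.8 FPKM in Exosc3-depleted cells, against 45.0 and 49.6 FPKM in Exosc3-present cells. The groups did not overlap and each pair was tight, and this was the largest fall of any member (2.83-fold; log2 -1.47, SE 0.17, limma adjusted p = 0.000933). Ubtf, the gene for UBF, was at 29.4 and 26.8 FPKM in Exosc3-depleted cells, against 37.4 and 46.6 FPKM in Exosc3-present cells (log2 -0.56, adjusted p = 0.0447). The ratio of Tcof1 to Ubtf FPKM, which a factor applied to a whole library does not change (quantile normalization can), was 0.564 and 0.628 in Exosc3-depleted libraries, against 1.21 and 1.06 in Exosc3-present libraries, with no overlap between the groups. This pair, like the other ratios below, was chosen after the values were seen, and with 2 libraries a group it was not tested. Further ratios were taken whose values are not printed. Those of Pes1 to Wdr12 and of Npm3 to Npm1 overlapped between the groups, and that of Imp3 to Imp4 did not. Rrn3, which makes the polymerase competent to start, was at 30.8 and 51.8 FPKM in Exosc3-depleted cells, against 54.3 and 63.2 FPKM in Exosc3-present cells, and did not pass (log2 -0.55, adjusted p = 0.132). Mybbp1a, a nucleolar protein with roles in both transcription and processing, was at 160.1 and 132 FPKM in Exosc3-depleted cells, against 144 and 172 FPKM in Exosc3-present cells, and the groups overlapped (log2 -0.11, 95% interval -0.54 to 0.31). Its sign turned under all 3 other scalings.

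All 3 nucleolar chaperones with a row fell, against 30.1% of all tested rows, with a class median of log2 -1.18. Nolc1 (uc008hsg.1) encodes the phosphoprotein Nopp140, which binds both kinds of snoRNP, and was at 26.4 and 29.96 FPKM in Exosc3-depleted cells, against 60.0 and 76.4 FPKM in Exosc3-present cells (2.42-fold; log2 -1.25, SE 0.19, limma adjusted p = 0.00266). Npm3, a histone chaperone of the nucleoplasmin family, was at 57.7 and 38.5 FPKM in Exosc3-depleted cells, against 112 and 103 FPKM in Exosc3-present cells (2.24-fold; log2 -1.18, SE 0.22, adjusted p = 0.00608). Its recovered model length was 430 bases, the shortest of any member, and its Exosc3-depleted libraries differed by more than its Exosc3-present ones. Npm1, the gene for nucleophosmin and the most abundant member, was at 569 and 502 FPKM in Exosc3-depleted cells, against 729.9 and 1125 FPKM in Exosc3-present cells (log2 -0.76, SE 0.23, adjusted p = 0.0329). Its groups did not overlap, but its Exosc3-present replicates lay far apart, and its call ended under the other scalings.

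Among snoRNP core proteins, 2 of the 3 with a row fell, against 30.1% of all tested rows, with a class median of log2 -0.56. Nop10 (uc008lor.1), the small box H/ACA protein that also belongs to telomerase, was at 25.6 and 27.3 FPKM in Exosc3-depleted cells, against 75.6 and 70.9 FPKM in Exosc3-present cells. It had the smallest adjusted p of any member (2.77-fold; log2 -1.45, SE 0.16, limma adjusted p = 0.000909). Gar1, another box H/ACA core protein, was at 10.8 and 11.0 FPKM in Exosc3-depleted cells, against 14.1 and 16.6 FPKM in Exosc3-present cells, and did not pass (log2 -0.47, 95% interval -0.90 to -0.05, adjusted p = 0.0718). The ratio of Nop10 to Gar1 FPKM was 2.38 and 2.47 in Exosc3-depleted libraries, against 5.37 and 4.27 in Exosc3-present libraries, again with no overlap. Fbl, the gene for fibrillarin, the methyltransferase of box C/D snoRNPs, was at 97.0 and 79.0 FPKM in Exosc3-depleted cells, against 130.3 and 128 FPKM in Exosc3-present cells (log2 -0.56, SE 0.17, adjusted p = 0.0368), and its call ended under the other scalings. Nop56, Nop58, Dkc1 and Nhp2 had no row, so the class is seen here through 3 of its 7 genes.

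Large-subunit assembly factors fell in 8 of 12 cases (66.7%, against 30.1% of all tested rows), with a class median of log2 -0.62, and none rose. Under median-of-ratios scaling, quantile normalization and scaling without the 50 highest rows 3, 3 and 2 of the 12 fell. The shares of all tested rows that fell were then 19.8%, 19.2% and 14.2%. Rrp1 (uc007fxs.1) and Rrp1b (uc008bvt.2) are paralogues related to the yeast large-subunit factor Rrp1. Rrp1 was at 36.5 and 36.0 FPKM in Exosc3-depleted cells, against 71.7 and 82.5 FPKM in Exosc3-present cells (2.13-fold; log2 -1.07, SE 0.17, limma adjusted p = 0.00287). Rrp1b was at 11.0 and 13.8 FPKM in Exosc3-depleted cells, against 25.9 and 29.3 FPKM in Exosc3-present cells (2.22-fold; log2 -1.13, SE 0.19, adjusted p = 0.0041). The ratio of Rrp1 to Rrp1b FPKM was 3.32 and 2.61 in Exosc3-depleted libraries, against 2.77 and 2.82 in Exosc3-present libraries, which overlap. How reads shared by paralogues or pseudogene copies were counted is not given in the sources used here, so the values of Rrp1, Rrp1b and Npm1, which has processed pseudogenes, carry that uncertainty. Rrp15, an early factor of large-subunit RNA processing in yeast, was at 15.3 and 20.2 FPKM in Exosc3-depleted cells, against 32.8 and 41.8 FPKM in Exosc3-present cells (log2 -1.05, adjusted p = 0.00793), a fall that did not pass with scaling without the 50 highest rows (adjusted p = 0.0627) or without Exosc3-present replicate 2 (adjusted p = 0.0975).

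The PeBoW complex, which matures the large-subunit RNA, was represented by Pes1 and Wdr12, since Bop1 had no row. Wdr12 was at 9.11 and 12.2 FPKM in Exosc3-depleted cells, against 17.2 and 18.8 FPKM in Exosc3-present cells (log2 -0.74, adjusted p = 0.0239). Pes1 was at 47.8 and 46.6 FPKM in Exosc3-depleted cells, against 65.9 and 67.4 FPKM in Exosc3-present cells (log2 -0.49, adjusted p = 0.0411), the smallest fall that passed. The RNA methyltransferases of the class fell too. Nop2 was at 64.6 and 56.3 FPKM in Exosc3-depleted cells, against 92.2 and 107 FPKM in Exosc3-present cells (log2 -0.71, adjusted p = 0.0159), and Ftsj3, related to yeast Spb1, was at 39.1 and 54.7 FPKM in Exosc3-depleted cells, against 66.6 and 83.4 FPKM in Exosc3-present cells (log2 -0.68, adjusted p = 0.0428). Nop16 was at 14.1 and 12.7 FPKM in Exosc3-depleted cells, against 19.3 and 20.9 FPKM in Exosc3-present cells (log2 -0.57, adjusted p = 0.0354). In all 5 the groups stood apart, but the calls ended under each of the 3 other scalings.

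Of the large-subunit members that did not pass, Ebna1bp2, related to the yeast assembly factor Ebp2, was at 15.9 and 19.6 FPKM in Exosc3-depleted cells, against 23.3 and 25.3 FPKM in Exosc3-present cells (log2 -0.45, adjusted p = 0.0895). Rrs1, which helps to load the 5S particle in yeast, had a log2 fold change of -0.18 (95% interval -0.65 to 0.30), and Noc3l, the least abundant member by its mean, one of -0.17 (-0.78 to 0.45). Brix1, related to yeast Brx1, was at 16.9 and 17.5 FPKM in Exosc3-depleted cells, against 14.8 and 18.03 FPKM in Exosc3-present cells, with overlapping groups (log2 0.07, 95% interval -0.36 to 0.50). The last 3 intervals include 0, and the Exosc3-depleted value of at least 1 library lay within the Exosc3-present range or above it in each. The sign of Rrs1 and Noc3l turned under all 3 other scalings, and that of Brix1 without Exosc3-present replicate 1.

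**Figure D3:**
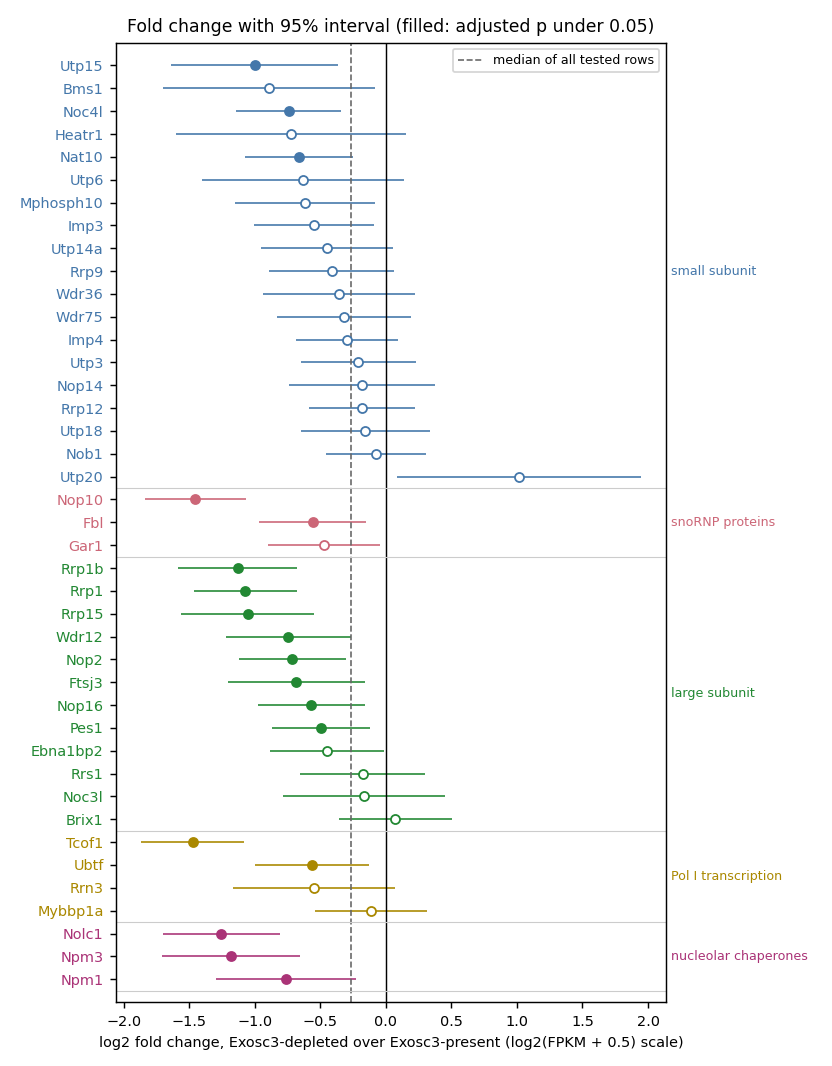
Log2 fold change, Exosc3-depleted over Exosc3-present, with its 95% interval for the 41 members by class, filled where adjusted p was under 0.05, beside the median of all tested rows at -0.27 (dashed line). Filled points make up 3 of 19 small-subunit members, 2 of 3 snoRNP proteins, 8 of 12 large-subunit members, 2 of 4 polymerase I transcription genes and 3 of 3 chaperones. Of all tested rows 30.1% fell.

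Of the small-subunit factors 3 of 19 fell (15.8%, against 30.1% of all tested rows), with a class median of log2 -0.41. Whether the classes differ was not tested. Utp15, part of the UtpA complex that binds the start of the precursor, was at 3.80 and 6.82 FPKM in Exosc3-depleted cells, against 10.9 and 10.5 FPKM in Exosc3-present cells (log2 -0.999, SE 0.27, limma adjusted p = 0.0233). Noc4l, a partner of Nop14, was at 18.6 and 16.6 FPKM in Exosc3-depleted cells, against 30.3 and 29.2 FPKM in Exosc3-present cells (log2 -0.74, SE 0.17, adjusted p = 0.0126). Nat10, an RNA acetyltransferase of the small-subunit RNA, was at 20.5 and 23.0 FPKM in Exosc3-depleted cells, against 32.7 and 36.9 FPKM in Exosc3-present cells (log2 -0.66, SE 0.17, adjusted p = 0.0208). With median-of-ratios scaling Utp15 alone of the class stayed lower (adjusted p = 0.0263), and with the other 2 scalings 0 of the 19 did.

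The U3-binding partners Imp3, Imp4 and Mphosph10 form one complex and none of them passed. Imp3 was at 32.5 and 24.7 FPKM in Exosc3-depleted cells, against 43.1 and 40.1 FPKM in Exosc3-present cells (log2 -0.55, adjusted p = 0.0573), and Mphosph10 at 5.85 and 6.55 FPKM in Exosc3-depleted cells, against 8.10 and 11.8 FPKM in Exosc3-present cells (log2 -0.62, adjusted p = 0.0631). Imp4 was at 24.1 and 22.3 FPKM in Exosc3-depleted cells, against 28.9 and 28.4 FPKM in Exosc3-present cells (log2 -0.30, adjusted p = 0.189). In all 3 the Exosc3-depleted libraries lay below the Exosc3-present ones, by amounts the test did not separate from the spread. Rrp9, a protein specific to the U3 snoRNP and the most abundant of the class, was at 108 and 78.3 FPKM in Exosc3-depleted cells, against 129.6 and 116 FPKM in Exosc3-present cells (log2 -0.41, adjusted p = 0.142).

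A further 6 processome proteins did not pass either. On the log2 scale Wdr36 was at -0.36, Wdr75 at -0.32, Utp14a, an activator of a processome helicase in yeast, at -0.45, Utp3 at -0.21, Nop14 at -0.18 and Utp18 at -0.16, with adjusted p-values between 0.129 and 0.58. Rrp12 and the endonuclease gene Nob1, which act on the pre-40S particle late in its path, were at log2 -0.18 and -0.07. Nob1 was at 33.5 and 33.0 FPKM in Exosc3-depleted cells, against 34.8 and 35.3 FPKM in Exosc3-present cells, with a 95% interval of -0.45 to 0.30 on the log2 scale. The groups of Nob1 and Rrp12 did not overlap, but the step between them was small. Bysl and Tsr1, the other listed genes of that late stage, had no row.

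Utp20 (uc007grx.2) went the other way. It encodes a very large scaffold protein of the processome, and was at 17.8 and 44.9 FPKM in Exosc3-depleted cells, against 12.7 and 14.9 FPKM in Exosc3-present cells. Both Exosc3-depleted libraries were above both Exosc3-present ones, replicate 2 far more than replicate 1, and the difference did not pass (2.27-fold; log2 1.02, SE 0.39, 95% interval 0.09 to 1.94, limma adjusted p = 0.0753). It passed with median-of-ratios scaling (log2 1.25, adjusted p = 0.0111) and quantile normalization (log2 1.37, adjusted p = 0.0363), and not with scaling without the 50 highest rows (log2 1.35, adjusted p = 0.0816). Without Exosc3-depleted replicate 2 its log2 fold change was 0.36 (adjusted p = 0.0523) and without Exosc3-depleted replicate 1 it was 1.67 (adjusted p = 4.01e-06), so replicate 2 set its size. Without Exosc3-present replicate 2 it passed (log2 1.13, adjusted p = 0.0257). The ratio of Utp20 to Heatr1 FPKM was alike within each pair, at 1.24 and 1.32 in Exosc3-depleted libraries, against 0.379 and 0.367 in Exosc3-present libraries. Both genes had a like gap within the Exosc3-depleted pair (1.31 and 1.22 on the log2(FPKM + 0.5) scale), so the ratio does not show that gap. The difference in ratio between groups also holds the lower Heatr1 values. Heatr1, a long HEAT-repeat protein of the UtpA complex, was itself at 14.3 and 34.0 FPKM in Exosc3-depleted cells, against 33.5 and 40.6 FPKM in Exosc3-present cells (log2 -0.73, adjusted p = 0.156).

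Heatr1 was one of several members whose Exosc3-depleted replicates disagreed. On the log2(FPKM + 0.5) scale Exosc3-depleted replicate 2 exceeded replicate 1 by 1.31 for Utp20, 1.22 for Heatr1, 1.07 for the GTPase gene Bms1, 1.03 for Utp6, 0.77 for Utp15, 0.74 for Rrn3 and 0.72 for Noc3l. Bms1 was at 9.12 and 19.6 FPKM in Exosc3-depleted cells, against 22.5 and 28.5 FPKM in Exosc3-present cells (log2 -0.89, adjusted p = 0.0727), and Utp6, a UtpB protein, at 4.67 and 10.1 FPKM in Exosc3-depleted cells, against 10.8 and 11.1 FPKM in Exosc3-present cells (log2 -0.63, adjusted p = 0.159). Replicate 2 was the higher one in 26 of the 41 members in the Exosc3-depleted pair, and in 33 of the 41 in the Exosc3-present pair. The Exosc3-depleted gap went with the length of the gene model. Utp20 (8831 bases) and Heatr1 (6776 bases) have the longest models among the members, and Npm3 (430 bases), with the shortest, had the most negative gap (-0.58). Across the 41 members Spearman's rho between model length and this gap was 0.47, and across all 9336 rows it was 0.46, so the trend was not particular to ribosome biogenesis genes. These points share the same 2 libraries, and rho is given as a description. In the Exosc3-present pair the same rho was 0.25 in members and 0.28 in all rows. The SD over all rows of the log2 gap was 0.43 in the Exosc3-depleted pair and 0.19 in the Exosc3-present pair. Model length had little relation to the fold change itself (rho 0.10 in members, 0.02 in all rows).

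**Figure D4:**
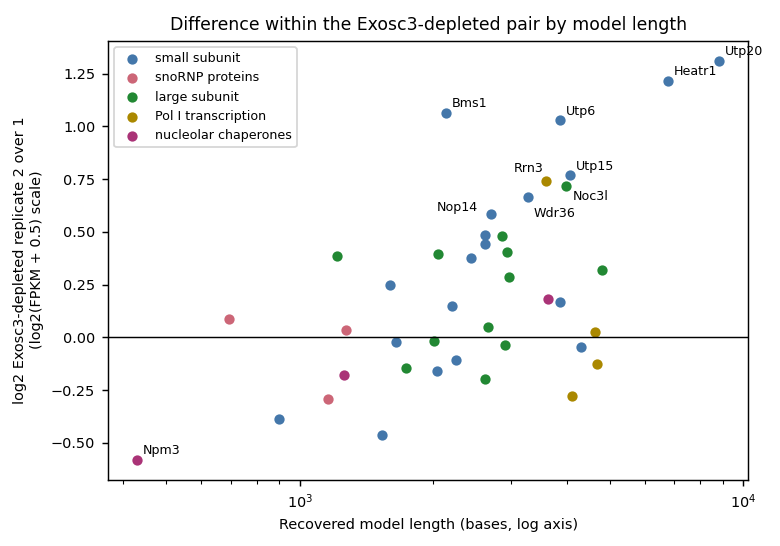
Log2 difference between Exosc3-depleted replicates 2 and 1 (vertical axis) against the recovered model length in bases (log axis) for the 41 members, coloured by class. Utp20 and Heatr1 stand at the top right with gaps of 1.31 and 1.22, and Npm3 at the bottom left with -0.58.

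Other genes of the pathway came from a list made by role, with earlier results of these data known. Of 65 genes with a row 22 fell and 1 rose, or 33.8% lower against 30.1% of all tested rows, with a median of log2 -0.36. By class, 4 of 18 small-subunit, 12 of 30 large-subunit, 2 of 6 snoRNP assembly and 4 of 11 transcription genes fell. The smallest p-values among the falls belonged to Senp3, Ruvbl1, Urb2 and Wdr18. Senp3, a nucleolar SUMO protease, was at 29.5 and 29.6 FPKM in Exosc3-depleted cells, against 73.6 and 73.2 FPKM in Exosc3-present cells (log2 -1.30, limma adjusted p = 0.00123), and Ruvbl1, an ATPase of snoRNP assembly, was at 19.7 and 18.6 FPKM in Exosc3-depleted cells, against 44.8 and 48.6 FPKM in Exosc3-present cells (log2 -1.26, adjusted p = 0.00155). Urb2 was at 6.04 and 12.0 FPKM in Exosc3-depleted cells, against 29.4 and 36.9 FPKM in Exosc3-present cells (log2 -1.89, adjusted p = 0.00373), and Wdr18, which works with Senp3 in one complex, was at 36.9 and 29.2 FPKM in Exosc3-depleted cells, against 61.1 and 55.6 FPKM in Exosc3-present cells (log2 -0.82, adjusted p = 0.0121). Taf1d, a subunit of the polymerase I selectivity factor, was the 1 that rose, at 44.5 and 42.8 FPKM in Exosc3-depleted cells, against 28.8 and 27.5 FPKM in Exosc3-present cells (log2 0.62, adjusted p = 0.0201). Next by p among positive differences came Nmd3 (log2 0.36), Taf1a (0.35) and Pwp2 (0.24), none of which passed. With median-of-ratios scaling, quantile normalization and scaling without the 50 highest rows 4, 3 and 3 of these 65 genes fell, a smaller share than the 19.8%, 19.2% and 14.2% of all tested rows that fell under the same scalings.

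Promoter sequence is shown for 4 members because they span the responses, from 2 that fell under all alternatives (Nop10, Nolc1) through 1 whose call ended under the other scalings (Nop2) to 1 that did not pass (Rrn3). The sequences come from RefSeq promoter windows of GRCm38.p6, which is not the mm9 build named for these data, so the coordinates belong to the reference alone. Each run is the 250 bases before the annotated start, 5′ to 3′ on the gene's strand, all on the plus strand, at chr2:112261676-112261925 for Nop10, chr19:46075597-46075846 for Nolc1, chr6:125131633-125131882 for Nop2 and chr16:13780449-13780698 for Rrn3. Capitals mark CACGTG, the E-box read by MYC among other factors, and CCGGAAG, a core bound by ETS factors, searched with its reverse complement CTTCCGG.
Nop10: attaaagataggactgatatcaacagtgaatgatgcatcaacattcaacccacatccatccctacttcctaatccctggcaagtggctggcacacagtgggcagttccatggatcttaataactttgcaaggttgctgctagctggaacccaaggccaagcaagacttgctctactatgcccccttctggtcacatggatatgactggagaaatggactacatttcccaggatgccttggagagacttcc
Nolc1: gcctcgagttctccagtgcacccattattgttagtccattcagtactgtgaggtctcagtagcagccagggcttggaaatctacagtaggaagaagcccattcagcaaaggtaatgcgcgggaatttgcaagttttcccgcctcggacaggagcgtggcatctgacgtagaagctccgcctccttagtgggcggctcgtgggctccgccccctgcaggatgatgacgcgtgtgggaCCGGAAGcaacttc
Nop2: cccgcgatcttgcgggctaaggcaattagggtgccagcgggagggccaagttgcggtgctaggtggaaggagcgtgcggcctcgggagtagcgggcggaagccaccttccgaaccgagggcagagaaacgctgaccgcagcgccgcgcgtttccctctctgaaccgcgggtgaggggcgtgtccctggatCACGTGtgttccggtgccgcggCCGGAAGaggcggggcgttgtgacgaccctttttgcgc
Rrn3: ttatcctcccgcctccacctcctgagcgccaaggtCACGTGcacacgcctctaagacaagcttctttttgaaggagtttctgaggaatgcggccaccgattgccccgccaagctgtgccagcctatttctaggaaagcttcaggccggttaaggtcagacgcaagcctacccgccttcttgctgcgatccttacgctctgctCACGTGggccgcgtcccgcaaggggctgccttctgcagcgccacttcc
The Nop10 run holds neither motif, Nolc1 has CCGGAAG with its first letter 14 bases before the start, Nop2 has CACGTG at 60 and CCGGAAG at 38 bases before the start, and Rrn3 has CACGTG at 215 and 48 bases before the start. The Rrn3 window also holds CTTCCGG across the start, beyond the end of the printed run, with its first letter 5 bases before the start, and again at 19 bases after it.

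Of the 41 members with a row 34 had a window of 300 bases (250 before to 50 after the start). CACGTG stood in 7 of the 34 (20.6%), against 12.8% of the 6370 tested genes with a window and 8.09% of all 27025 genes with one. CCGGAAG or its reverse complement stood in 13 (38.2%), against 20.9% of tested genes and 9.93% of all genes. Nop2, Rrn3 and Utp18 hold both motifs, which do not overlap in any of them. Split by response, CACGTG stood in 2 of the 15 members that fell (Nop2, Pes1) and in 5 of the 19 that did not pass (Imp4, Mybbp1a, Rrn3, Utp18, Utp20), and CCGGAAG in 3 of the 15 that fell (Nolc1, Nop2, Rrp15) and in 10 of the 19 that did not pass. These counts describe letters in a window, were not tested, and say nothing about binding.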

How the data were processed

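Deposited FPKM values for 4 libraries were used as given. Build mm9 is listed with edgeR, bedtools, Picard, STAR and Bowtie2 in the submitters' processing notes, without versions or roles, so how the authors made the FPKM is not given in the sources used here, nor whether counting used strand. Library totals were found as the value most (count, GENCODE transcript length) pairs share, and the shortest length giving whole fragments in every library was kept (tolerance 0.004 fragments, 15471 of 15471 rows above 0).

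Differences were fitted with limma 3.58.1 under R 4.3.3 (intensity trend, no covariate, two-sided) on log2(FPKM + 0.5). The log2 fold changes therefore understate the change of low genes, and N-fold values are ratios of mean FPKM. The fit was also run on simulated data, with large changes in few rows and no overall shift. That run says little about data with broad shifts and uneven replicates like these. The residual degrees of freedom were 2, with 4.98 from the prior. Members, classes, lists and motifs were chosen with earlier results of these data known, and classes follow textbook roles. Every member is named, with library values for called members and the 2 most abundant of each class; others with library values were chosen after seeing them. Of the other pathway genes, the 4 with the smallest p in each direction are named. There were 16 alternatives, on pseudocount, filter, scaling, variance model, test, threshold, block and left-out libraries.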

Additional observations from a re-analysis of the deposited data

How the results depend on the processing

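The number of members that fell was 18. It was also 18 with a pseudocount of 0.1 or 1, a filter at a mean of 2 FPKM, and robust or untrended empirical Bayes. In those settings between 29.6% and 33.5% of all tested rows fell, against 43.9% of members. The number was within 1.5 times of 18 with no filter on low values (13), limma-voom on recovered fragments (15) and the replicate block (24). Of all tested rows 18.7%, 29.4% and 37.1% then fell, in that order, against 31.7%, 36.6% and 58.5% of members. The order of counts below is small subunit, snoRNP, large subunit, transcription. Chaperones make up the rest, with 2 falling under each of the 3 scalings and at adjusted p under 0.01. With median-of-ratios scaling 8 members fell (1, 1, 3, 1 by class) and 1 rose, with a median of -0.31 for all members and -0.17, -0.31, -0.38, -0.31 by class, and 4 other pathway genes fell. With quantile normalization 7 fell (0, 1, 3, 1) and 1 rose, with a median of -0.18 for all members, -0.025, -0.18, -0.27, -0.18 by class and -0.77 for chaperones, and 3 other pathway genes fell and 3 rose. With scaling without the 50 highest rows 6 fell (0, 1, 2, 1) and 0 rose. The median was then -0.22 for all members, -0.069, -0.22, -0.29, -0.22 by class and -0.84 for chaperones. Of the other pathway genes 3 fell and 3 rose. Under these 3 scalings, in the order given, 17.4%, 16.9% and 16.5% of all tested rows rose. At adjusted p under 0.01, 7 members fell (0, 1, 3, 1), or 17.1% of the 41, against 15.6% of all tested rows. At that threshold 3 of the 65 other pathway genes fell and 0 rose, and 2201 rows were called. Counts fell to 1 for snoRNP and 1 for transcription genes both with no filter and with limma-voom.

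With 1 library left out, members lower ranged from 6 to 33, members higher from 0 to 1, and lower counts from 0 to 13 (small subunit), 1 to 3 (snoRNP), 2 to 11 (large subunit) and 1 to 3 (transcription); the snoRNP median ranged from -0.70 to -0.49, other pathway genes lower from 3 to 39 and higher from 0 to 8, and rows called from 1750 to 6334. In such a fit the lone library is assumed to vary like the other group.

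The replicate number pairs libraries only by name (correlation 0.24 of the gaps within pairs, 2 pairs). With the replicate block 24 members fell, 8 of them small-subunit genes, and 1 rose, Utp20 (log2 1.02, limma adjusted p = 8.77e-06), while 37.1% of all tested rows fell and 15.3% rose.

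Members near 0 changed sign, and no value of changed sign passed. With median-of-ratios scaling, quantile normalization and scaling without the 50 highest rows the log2 values were 0.027, 0.089 and 0.12 for Utp3, 0.082, 0.16 and 0.18 for Utp18, 0.057, 0.17 and 0.15 for Nop14, 0.17, 0.30 and 0.26 for Nob1, 0.062, 0.19 and 0.16 for Rrp12, 0.061, 0.13 and 0.16 for Rrs1, 0.059, 0.13 and 0.15 for Noc3l and 0.13, 0.30 and 0.23 for Mybbp1a. Under quantile normalization and scaling without the 50 highest rows they were 0.0027 and 0.020 for Wdr75 and 0.020 and 0.041 for Imp4. With 1 library left out the log2 values ranged from -0.38 to 0.065 for Utp18, from -0.47 to 0.11 for Nop14, from -0.37 to 0.021 for Rrs1, from -0.53 to 0.19 for Noc3l, from -0.25 to 0.024 for Mybbp1a and from -0.067 to 0.21 for Brix1. The cause of these shifts was not tested.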
